A study of Mus musculus with 8 samples.

Results

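Fibroblasts of the leptomeninges and of the larger blood vessels were picked out of a single-nucleus RNA survey of the mouse cerebral cortex, and their genes are described here by class of nucleus, by cluster, and by Chd8 genotype. The members were selected on their own counts. A nucleus was kept when it had at least 500 detected genes and at most 2% of its UMIs (unique molecular identifiers, 1 per captured transcript) on mitochondrial genes. It was a member when Slc6a13, Col1a2, Dcn, Bnc2 and Slc47a1 together held at least 4 UMIs, with at most 2 UMIs of the endothelial genes Flt1 and Mecom, at most 1 of the mural genes Atp13a5 and Notch3, at most 1 of the neuronal genes Slc17a7, Gad1 and Gad2, and at most 2 of the glial genes Slc1a3, Mog and Inpp5d. The rule found 386 nuclei among 77185 kept nuclei (0.50%), 198 of them in 4 wild-type libraries and 188 in 4 libraries labelled Chd8 heterozygous.

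The cortex, without its medial portion, came from C57BL/6J mice of both sexes at postnatal day 25. Each of the 8 libraries was made from 1 animal: 2 wild-type (WT) males, 2 WT females, 2 Chd8+/- males and 2 Chd8+/- females, written Chd8het below. Chd8 encodes a chromatin remodeller of the CHD family, and its heterozygous loss is a known risk factor for autism; the study asks which cortical cell types respond to that loss. The labels do not describe the allele. In each group replicate 1 was single-indexed and replicate 2 dual-indexed, so the index type can be told apart from genotype and from sex. The animals were collected as litter- and sex-matched pairs, but no label ties a replicate number to a litter.

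Leptomeningeal fibroblasts are mesenchymal cells of the pia and arachnoid, the thin membranes that cover the brain, and perivascular fibroblasts lie along penetrating vessels. They build collagens and the basement membrane at the brain surface, secrete retinoic acid, prostaglandin D2 synthase and growth factors towards the brain and the cerebrospinal fluid, and carry transporters that move organic ions, amino acids and bicarbonate. A cortical dissection carries only part of the membranes, so how many such nuclei a library holds depends on the dissection as well as on the animal.

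All 8 libraries used the 10x 3' kit and held 9140 to 14280 barcodes and 69.5 to 98.1 M UMIs each. Members numbered 36 to 64 per library, with 115346 to 174403 UMIs in their sum. Their median depth was 2035 to 3189 UMIs per nucleus, against 5227 to 8390 over all kept nuclei. Barcodes found in more than 1 library numbered 1149, 7 members carried such a barcode, and 0 barcodes were shared between members. Scrublet, a caller of mixed droplets, marked 13 members (3.37%) and 5.48% of kept nuclei, and they were kept in the main analysis.

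The marker genes sat where the rule put them, which is a description and not a test. Bnc2, a zinc-finger transcription factor, had at least 1 UMI in 295 of 386 members (76.4%), Slc47a1, an exporter of organic cations, in 52.1%, Col1a2, a chain of type I collagen, in 41.5%, Dcn, the small proteoglycan decorin, in 32.4%, and Slc6a13, a transporter of GABA and taurine, in 24.9%. In the other 76799 kept nuclei, which were deeper (median 6744 UMIs), the same genes had a UMI in 1.68%, 0.497%, 1.26%, 0.928% and 0.869%. Just inside the threshold, 56 members held exactly 4 marker UMIs (median 1956 UMIs per nucleus). Just outside it, 80 nuclei that met every other limit held 3 (median 1821 UMIs). Of 782 kept nuclei with at least 4 marker UMIs, 396 were set aside by the other limits, most often the glial limit (264 nuclei) and least often the endothelial limit (27).

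Col1a1, the partner chain of type I collagen and the only listed marker that the rule did not use, averaged 133 ± 47.4 CPM (a gene's UMIs divided by all UMIs of the summed nuclei and put on one common scale; SD, n = 8 libraries) in the member sums. Values of single libraries are given here and below in the order male 1, male 2, female 1, female 2. Col1a1 stood at 83.1, 161, 109 and 98.5 CPM in the WT libraries and at 120, 165, 102 and 226 CPM in the Chd8het libraries, and the genotypes overlapped. It averaged 3.49 CPM in astrocytes, 1.04 CPM in mural nuclei and 0.934 CPM in all nuclei that were not members, and it was at 0 in the endothelial sums. Within the members this marker outside the rule was uneven: in the clusters described below it was at 390 CPM in the first, which holds 125 of the 386 nuclei, and at 65.4, 19.6 and 47.0 CPM in the next 3.

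**Figure D1:**
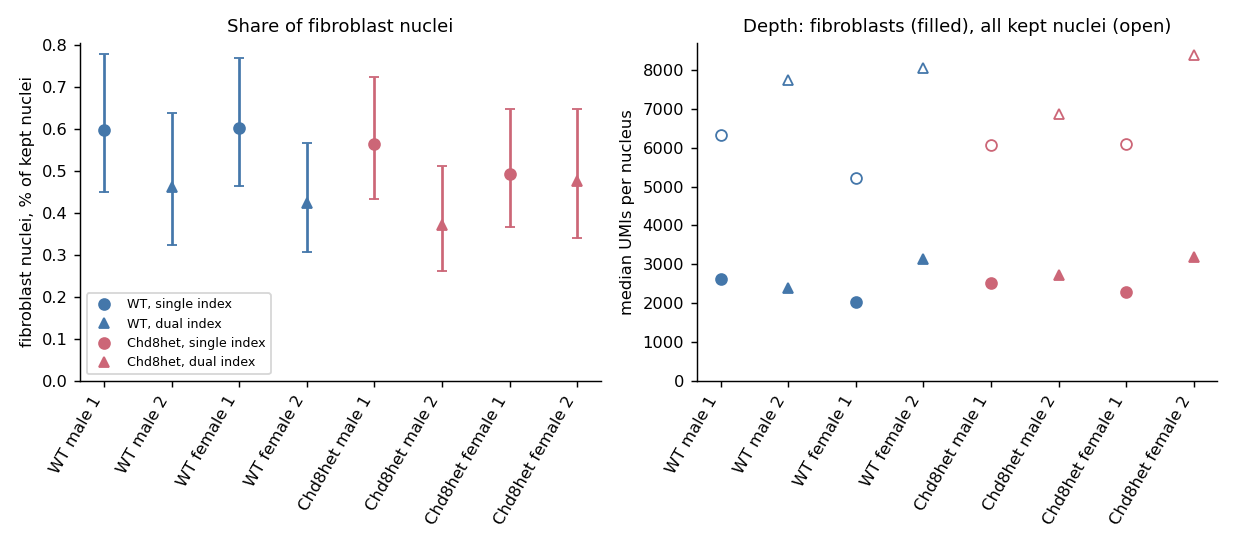
Left, fibroblast nuclei as a percentage of kept nuclei in each library, with exact binomial 95% intervals that cover counting error only; right, median UMIs per nucleus for fibroblasts (filled) and all kept nuclei (open). Blue is WT and red is Chd8het; circles are single-indexed and triangles dual-indexed, and every dual-indexed library lies below every single-indexed one in share (at most 0.476% against at least 0.492%).

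Most defining markers of the other cells that share the vessels and membranes were close to 0 in the members. The rule itself limited Flt1, Mecom, Atp13a5 and Notch3, so the sums that hold them are partly set by selection. Of 8 endothelial markers all were detected, with a summed level of 8.45 to 78.8 CPM over libraries against a mean of 11324 CPM in endothelial nuclei, and outside the rule Cldn5 averaged 1.83 CPM in members and 515 CPM in endothelial nuclei. Of 8 mural markers 7 were detected, at 12.2 to 86.7 CPM in sum. Outside the rule Rgs5 was at 0 in members and 378 CPM in mural nuclei and Abcc9 at 2.30 and 571 CPM, while Tagln, a contractile-cell gene, was higher in members (13.5 CPM) than in mural nuclei (8.38 CPM). Of 5 markers of perivascular macrophages 4 were detected, at 0 to 18.3 CPM in sum, and F13a1 was at 0. Choroid plexus and ependymal markers reached at most 32.8 CPM, with Folr1, Foxj1 and Otx2 at 0.

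Neuronal and oligodendrocyte transcripts were not absent. The 6 oligodendrocyte markers summed to 308 to 1423 CPM in the members and to 769 CPM on average in all other kept nuclei. The 6 excitatory-neuron markers summed to 368 to 883 CPM, and Meg3, an abundant neuronal long noncoding RNA, averaged 3009.6 CPM. Their part in the results was not tested. Aqp4, a water channel, and Gfap, an intermediate filament protein, both markers of astrocytes, averaged 10.4 and 6.14 CPM in the members. In astrocytes they averaged 90.0 and 31.6 CPM. Gja1, another marker, was not lower in members (179 CPM) than in astrocytes (166 CPM), and Slc1a2 was at 323 and 6407 CPM. The sum of 6 listed astrocyte markers (Aqp4, Gja1, Slc1a2, Slc1a3, Gfap and Aldh1l1) was 654 ± 125 CPM in the members and 9039.6 CPM on average in astrocytes. The rule limited Slc1a3 in members and the astrocyte class required it, so this sum is partly set by selection.

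Sequences at the starts of 3 genes that the results return to are printed to show what these regions look like: Nnat, the gene called between genotypes, Ptgds, the most abundant secreted product described, and Col1a2, a gene of the rule. Each run is the 250 bases before the RefSeq transcription start (GRCm38.p6), 5′ to 3′ on the gene's strand, with every CG dinucleotide in capitals. GENCODE places the starts of Ptgds (chr2:25466709-25470046, minus strand) and Col1a2 (chr6:4504814-4541544, plus strand) farther upstream, so those 2 windows lie within the GENCODE genes.
Nnat (chr2:157559828-157560077, plus strand): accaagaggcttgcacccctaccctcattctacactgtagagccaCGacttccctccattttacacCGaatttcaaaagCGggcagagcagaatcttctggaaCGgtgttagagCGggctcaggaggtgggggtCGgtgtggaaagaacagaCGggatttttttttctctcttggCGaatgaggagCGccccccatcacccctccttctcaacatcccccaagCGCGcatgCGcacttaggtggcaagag
Ptgds (chr2:25469750-25469999, minus strand): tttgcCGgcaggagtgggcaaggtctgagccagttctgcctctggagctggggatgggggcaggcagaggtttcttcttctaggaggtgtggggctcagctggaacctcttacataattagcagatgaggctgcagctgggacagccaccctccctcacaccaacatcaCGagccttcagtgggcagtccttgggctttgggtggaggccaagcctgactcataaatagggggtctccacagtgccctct
Col1a2 (chr6:4505368-4505617, plus strand): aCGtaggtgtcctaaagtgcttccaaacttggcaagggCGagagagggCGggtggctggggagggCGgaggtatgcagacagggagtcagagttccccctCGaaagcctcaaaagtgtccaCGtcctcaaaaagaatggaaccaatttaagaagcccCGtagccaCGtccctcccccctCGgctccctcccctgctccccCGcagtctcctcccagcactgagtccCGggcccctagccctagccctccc
Nnat had 12 CG dinucleotides in this window, Col1a2 11 and Ptgds 2, against a median of 6 over 32851 promoter windows of that length. At least 12 were found in 33.5% of all windows, and at most 2 in 29.0%. The letters CCAAT were searched on both strands and occurred 1 time in the Col1a2 window and in neither of the others, and 33.9% of all windows held them. The letters TATAAA occurred in none of the 3 windows and in 12.4% of all windows. Of 144 genes with tabulated values, 99 had an entry in the promoter table.

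Beyond the rule genes, the summed members carried transporters, matrix genes and transcription factors at levels far above the endothelial, mural, astrocyte and remaining nuclei. Because the same nuclei were chosen by their RNA, these ratios are given without a test. The log2 ratio to the highest comparison class (1 CPM added to both) was 8.66 for Slc47a1, 8.65 for Bnc2 and 5.91 for Dcn. Among genes outside the rule it was 6.33 for Eya2, a transcriptional coactivator (801 ± 112 CPM in members, at most 8.94 CPM on average in any other class). It was 6.61 for Cdh1, the epithelial cadherin, and 6.07 and 5.65 for the anion transporters Slc26a7 and Slc26a2. Bmp6, a bone morphogenetic protein, had a ratio of 5.44 and averaged 611 ± 197 CPM. Slc9a2, a sodium/proton exchanger, stood at 5.28, Prdm6 at 5.46, Adamtsl3 at 5.75, Adam12 at 4.92, and the collagens Col25a1, Col1a1 and Col6a2 at 4.95, 4.90 and 4.82. The pair Gm5860 and Gm6260 (6.71 and 6.33), with Ahnak2 (6.23), Myzap (5.50) and Dock5 (5.18), completed the leading 20 genes with at least 10 UMIs in every member sum. Many were not traits of every member. In cluster 1, described below, Slc47a1, Slc26a7 and Gm6260 were at 0 CPM, and Cdh1, Slc26a2, Adamtsl3, Gm5860 and Ahnak2 at 3.71 CPM. Col25a1, Slc9a2, Col6a2 and Myzap were at 18.6 to 37.1 CPM there, and the remaining leading genes at 186 to 1616 CPM.

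**Figure D2:**
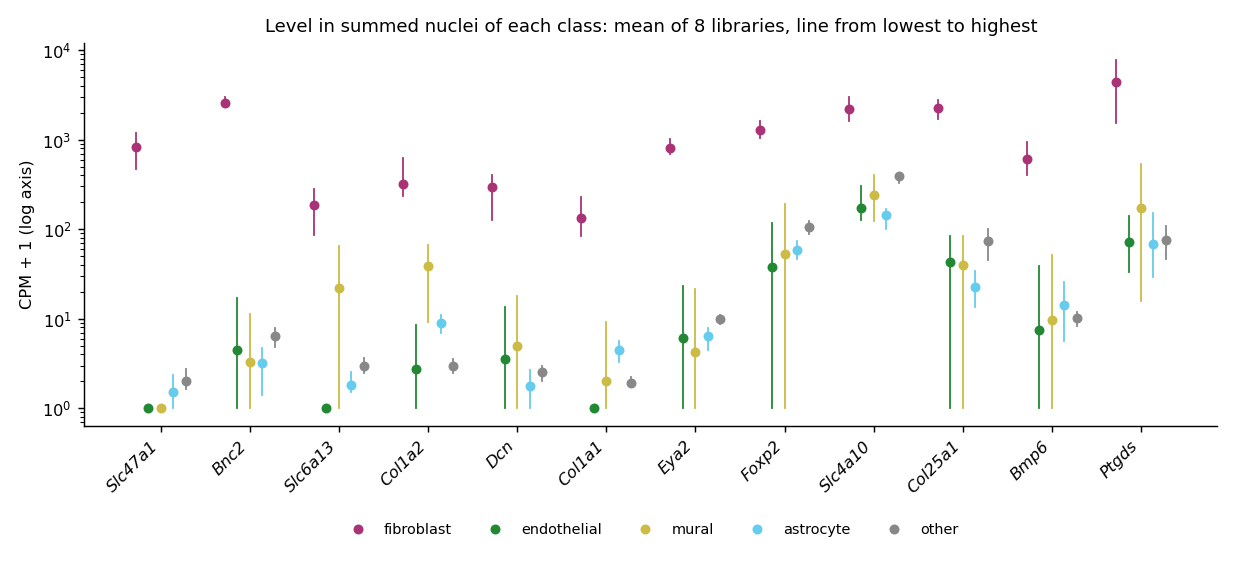
Level of 12 genes in the summed nuclei of each class, as CPM plus 1 on a log axis; points are means of 8 libraries and lines run from the lowest to the highest library. Fibroblast sums are the highest of the 5 classes for each gene shown, and Slc47a1 is at 0 CPM in the endothelial and mural sums.

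Among listed genes that reached 10 CPM in the members, most collagens outside the basement membrane and most decorin-family proteoglycans were highest there. Most basement membrane genes were not. These counts and sums, and those of transporters and transcription factors, include the rule genes Col1a2 (318 CPM), Dcn (295 CPM), Slc6a13, Slc47a1 and Bnc2, which the choice of members raises. The floor of 10 CPM was set on the members' own level, which favours the members in such counts. The share over all genes at that floor is not given, so the counts are a description only. Of 24 non-fibrillar collagens listed outside the basement membrane, 14 averaged at least 10 CPM in the members and 12 of those were highest there. The list summed to 3952 CPM in the members, of which Col25a1 gave 2260 CPM, against 361 CPM in mural nuclei. Of 11 fibrillar collagens, 8 reached 10 CPM and 6 of those were highest in the members, with sums of 815 and 244 CPM in members and mural nuclei. Small leucine-rich proteoglycans, the decorin family that binds collagen, gave 8 of 9, and summed to 609 CPM. Genes of collagen maturation and crosslinking gave 8 of 16, and matrix proteases and their inhibitors 6 of 11. Basement membrane genes gave 5 of 18: their sum was 1861 CPM in the members and 2303 CPM in mural nuclei, and Lama2 was higher in astrocytes (718 CPM) than in the members (502 ± 54.1 CPM).

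The next counts use the same floor on the members' own level, which favours the members here too. Of 26 transporters listed for the membranes, 23 averaged at least 10 CPM in the members and 12 of those were highest there. Slc38a2, a sodium-coupled carrier of neutral amino acids, averaged 2566 ± 850.5 CPM, and Slc4a10, a sodium-coupled bicarbonate transporter, 2181 ± 503 CPM. Of 40 mesenchymal transcription factors, 31 reached 10 CPM and 21 of those were highest in the members, among them Foxp1 (3015 ± 196 CPM) and Foxp2 (1289 ± 189 CPM), forkhead repressors that are also made by cortical neurons. Of 44 secreted signals, 19 of the 31 that reached 10 CPM were highest in the members. Among these, Ptgds, the lipocalin-type prostaglandin D2 synthase that is abundant in cerebrospinal fluid, averaged 4378 ± 2229.5 CPM, and Slit2, an axon-repelling ligand, 637 ± 163 CPM. Of 12 IGF system genes at that level 7 were highest in the members, but Igf1r, the receptor, was at 259 ± 86.2 CPM in the members and 2696 CPM in endothelial nuclei.

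The members were not 1 homogeneous population. Leiden clustering of the 386 nuclei (resolution 0.5) gave 5 clusters, numbered by size, of 125, 118, 85, 39 and 19 nuclei. Each gene was centred within each library before clustering, which favours mixing of the libraries. After that each cluster had nuclei from all 8 libraries, with 1 to 11 per library in cluster 4 and 1 to 4 in cluster 5. The genes that define clusters are given as a description, since the nuclei were divided by these same counts. The clusters carry numbers and leading genes only, because no marker list for subtypes of fibroblast was set up.

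Cluster 1 (125 nuclei, median 2056 UMIs) was led by Lama1, the embryonic-type laminin chain, at 1177 CPM against at most 34.1 CPM in the other clusters. It also held Slc7a11, a cystine/glutamate antiporter subunit (2143 CPM, next highest 73.8), Col4a6, a basement membrane collagen (587 CPM, next 14.9), Cemip, a hyaluronan-degrading protein (1319 CPM, next 47.0), Itih5 and Aox3. Most of the classical collagen and proteoglycan RNA lay in it: Col1a1 was at 390 CPM against 20 to 108 CPM elsewhere, Dcn at 1025 CPM against 74 to 98, Col3a1 at 238 CPM, Pdgfra, a growth factor receptor of mesenchymal cells, at 383 CPM against at most 28.2, and Slc6a13 at 735 CPM. Aldh1a2, the retinaldehyde dehydrogenase of the meninges, was at 189 CPM against at most 17.0. The organic anion carriers Slc22a6 and Slc22a8 were at 212 and 520 CPM, Apod at 2173 CPM, Igf2 at 253 CPM and Ptgds at 13108 CPM. Slc47a1 was not detected there (0 UMIs).

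Clusters 2 and 3 (118 and 85 nuclei) carried the other rule genes and a different set of collagens. Slc47a1 was at 1780 and 1229 CPM, Bnc2 at 3614 and 4495 CPM, Slc4a10 at 4265 and 3592 CPM, Foxp2 at 2188 and 2076 CPM, and Slit2 at 1085 and 1040 CPM. Cluster 3 was led by Col8a1, a network-forming short-chain collagen (538 CPM, next 158), Vwc2, Slco3a1 and Col25a1 (5636 CPM, next 2507). Lama1 was not detected in cluster 3 and was at 5.95 CPM in cluster 2. Cluster 2 was led by Crispld1 (321 CPM), which was spread over 50 of its nuclei. Its other leading genes included St18 and 9630013A20Rik, which came largely from single nuclei: 29 of 67 UMIs of St18 and 72 of 97 UMIs of 9630013A20Rik were in 1 nucleus each. Cluster 2 also had the highest summed oligodendrocyte markers (1358 CPM, against 388 to 620 CPM in clusters 1, 3 and 4), with Mbp at 568 CPM.

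Cluster 4 (39 nuclei) was led by Gm13270, Slc7a14, Bach2, Rnf152, Cubn, the endocytic receptor cubilin (733 CPM, next 84.8), and Lmntd1. It also held the highest Dpp4, a cell-surface dipeptidyl peptidase (1550 CPM), the highest Fn1, fibronectin (1991 CPM), Cldn11, a tight junction claudin (366 CPM), the junction scaffold Tjp1 (2216 CPM) and Cdh1 (432 CPM), with Ptgds at 6574 CPM. Cluster 5 (19 nuclei) was deeper, with a median of 8541 UMIs, and 10 of its nuclei were marked by Scrublet. It held 176211 of the 1195133 UMIs in the member sums. The 6 listed fibroblast markers summed to 1135 CPM in cluster 5, against 3277 to 5933 CPM in the other clusters. Neuronal genes led it: Cntnap2 was at 3712 CPM against at most 342 CPM elsewhere, and Lingo2 at 4012 CPM.

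**Figure D3:**
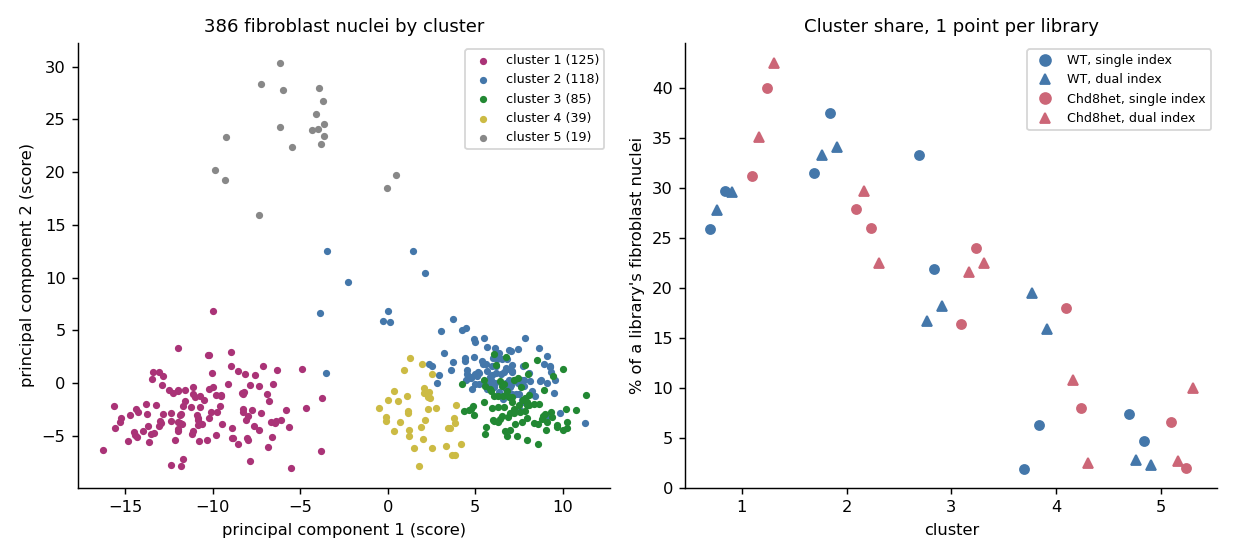
Left, the 386 fibroblast nuclei on the first 2 principal components (scores), coloured by cluster with the number of nuclei in brackets; right, each cluster's share of a library's fibroblast nuclei, 1 point per library. Cluster 1 lies apart on the first component and cluster 5 on the second; the shares of cluster 1 run from 25.9% to 42.5% over libraries.

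**Figure D4:**
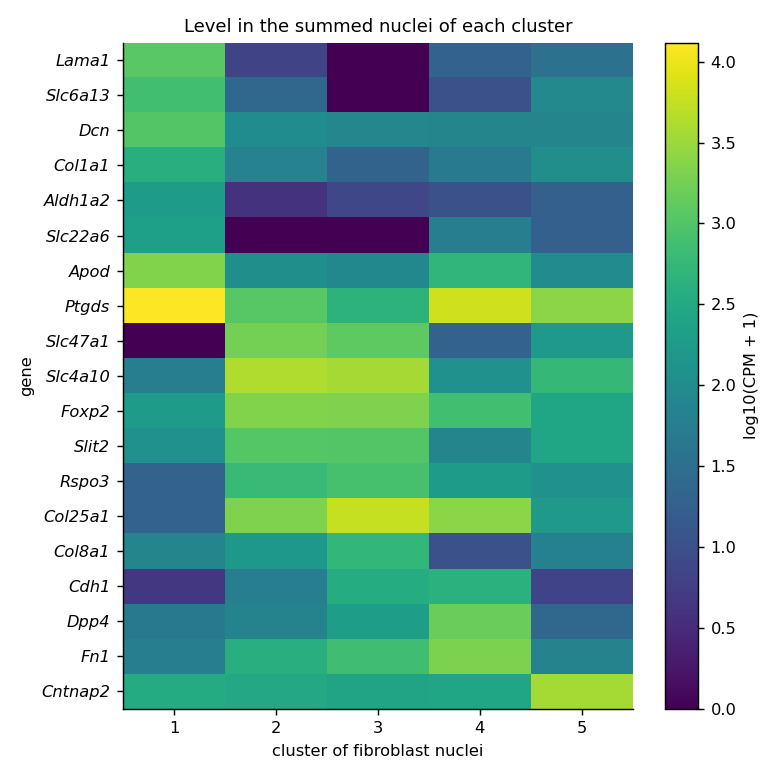
Levels of 19 genes in the summed nuclei of each cluster, as log10(CPM + 1). Lama1, Slc6a13, Col1a1 and Ptgds peak in cluster 1, Slc47a1 and Slc4a10 in clusters 2 and 3, Dpp4 and Fn1 in cluster 4, and Cntnap2 in cluster 5; Slc47a1 is at 0 in cluster 1.

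The marker threshold bears on this split. Members of cluster 1 had a median of 5 marker UMIs, against 13 and 17 in clusters 2 and 3, and made up 36 of the 56 nuclei that just reached 4. At 8 or more marker UMIs, 29 of 225 members belonged to cluster 1. The rule therefore reached Slc47a1 and Bnc2 nuclei with more room to spare than Lama1 nuclei.

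Some lists differed between cluster 1 and clusters 2, 3 and 4, and others did not. Fibrillar collagens summed to 1920 CPM in cluster 1 and 394 to 545 CPM in clusters 2, 3 and 4, basement membrane genes to 4974 CPM against 924 to 1662, and decorin-family proteoglycans to 1798 CPM against 225 to 460. Non-fibrillar collagens went the other way, with 1200 CPM in cluster 1 and 3733 to 8498 CPM in the other 3. Much of this was 1 gene, Col25a1, at 18.6 CPM in cluster 1 and 2075, 5636 and 2507 CPM in clusters 2, 3 and 4. Secreted signals summed to 19808 CPM in cluster 1, of which Ptgds gave 13108, and genes of retinoic acid synthesis and response to 1270 CPM against 432 to 949. Mesenchymal transcription factors summed to 6392 CPM in cluster 1 and 8950 to 16397 CPM in the other 3. That sum includes the rule gene Bnc2, at 423 CPM in cluster 1 and 3614, 4495 and 3061 CPM in clusters 2, 3 and 4. The sums of fibrillar collagens, decorin-family proteoglycans and transporters also include rule genes, so part of these contrasts follows from the choice of members. Other lists did not set cluster 1 apart: elastic fibre and matrix glycoproteins summed to 2095 CPM there and 1767 to 3315 CPM in the other 3, transporters to 7618 CPM against 2357 to 13473, and CHD remodellers to 1612 CPM against 1174 to 1682. Genes of TGF-beta and BMP signalling summed to 4268 CPM against 2996 to 4026.

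The share of fibroblasts did not differ between genotypes beyond the spread of the libraries. It was 0.598%, 0.462%, 0.603% and 0.423% of kept nuclei in the WT libraries and 0.565%, 0.372%, 0.492% and 0.476% in the Chd8het libraries. The groups overlap. Means were 0.521% ± 0.0928 (SD, n = 4) and 0.476% ± 0.0796 (SD, n = 4), a difference of -0.0455 percentage points (exact permutation test, two-sided, p = 0.486), with -0.0723 among single-indexed and -0.0187 among dual-indexed libraries. With 1 library left out it ranged from -0.0783 (without WT female 2) to -0.0108 (without Chd8het male 2). Median UMIs per member were 2549 ± 463 and 2680 ± 386 (exact permutation p = 0.686). A share of nuclei cannot tell fewer cells from fewer captured nuclei.

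The shares did not overlap between index types. The difference also passed the test under 4 other settings, among them Scrublet-marked nuclei removed (-0.117 points), but did not pass under 3. Single-indexed libraries held 0.564% ± 0.0513 members and dual-indexed ones 0.433% ± 0.0465 (SD, n = 4 each), without overlap, a difference of -0.132 points (exact permutation test, two-sided, p = 0.0286, the smallest that 4 against 4 allows). Dual-indexed libraries were deeper over all kept nuclei in every pair. When nuclei with at least 2000 UMIs were thinned to that number before the rule, the difference was -0.0485 points (exact permutation p = 0.400). Shallower nuclei were left out there, so that value covers another set of nuclei. The median member of WT female 1 had 2035 UMIs. It was -0.0788 points with the stricter nucleus filter (exact permutation p = 0.0857) and -0.0579 points with 8 or more marker UMIs (exact permutation p = 0.257). Endothelial and mural nuclei, picked by similar rules, tended the other way: 15 to 51 endothelial nuclei in single-indexed and 37 to 59 in dual-indexed libraries.

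Within the members, the Lama1 cluster had a larger mean share in the Chd8het libraries. The difference did not pass the test in the main setting and passed under some other settings. This comparison was not planned, and the clusters were set up as a description only. When the 140 genes with an unadjusted genotype p under 0.05 were left out of the clustering, 126 nuclei formed that cluster, including all 125 of cluster 1. Its share of members was 25.9%, 27.8%, 29.7% and 31.8% in the WT libraries and 31.1%, 35.1%, 40.0% and 42.5% in the Chd8het libraries. The lowest Chd8het library lay below the highest WT library. The difference was 8.39 points (exact permutation test, two-sided, p = 0.0571), with 7.77 points in single-indexed and 9.02 points in dual-indexed libraries. With those genes kept it was 8.96 points (exact permutation p = 0.0286, or 0.0714 after Benjamini-Hochberg adjustment over 5 clusters). With Scrublet-marked nuclei removed it was 8.56 points, and without Chd8het male 1 it was 10.4 points (exact permutation p = 0.0286 for both). Cluster 2 was the counterpart, at 34.1% of WT and 26.5% of Chd8het members, a difference of -7.58 points (exact permutation p = 0.0286, adjusted 0.0714). Splitting members by their rule genes in place of clusters, with Slc6a13, Col1a2 and Dcn set against Bnc2 and Slc47a1, gave 6.48 points (exact permutation p = 0.257). That split uses the same UMIs by which members were chosen, so it is no independent check. Among members with 8 or more marker UMIs the difference in the cluster's share was 4.09 points (exact permutation p = 0.429), with -3.06 points in single-indexed and 11.3 points in dual-indexed libraries. As a share of all kept nuclei, cluster 1 was 0.147% ± 0.0254 in WT and 0.176% ± 0.0325 in Chd8het libraries (exact permutation p = 0.229).

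Genotype was then compared gene by gene in the summed counts of the members, with edgeR's quasi-likelihood test across 3293 genes and sex as a term; a gene was called at a Benjamini-Hochberg adjusted p under 0.05. Of these, 1 gene was called (0.0304% of those tested), and it was higher in Chd8het. At an unadjusted p under 0.05 there were 140 genes (4.25%), 73 higher (2.22%) and 67 lower (2.03%), and 98 genes (2.98%) had levels that did not overlap between the 4 WT and 4 Chd8het libraries. In counts simulated from these libraries with no change the same test made 0 calls. It recovered 35.8% of 193 genes changed 2-fold together and 99.0% of 198 genes changed 4-fold together, so 2-fold changes were mostly out of its reach. Many changes at once ease the Benjamini-Hochberg adjustment, so the recovery of a few isolated changes would be lower and was not simulated. DESeq2's Wald test also called 1 gene, the same one, with 52 genes at an unadjusted p under 0.05.

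The called gene was Nnat, neuronatin, a small membrane protein encoded by an imprinted gene that is expressed from the paternal allele (chr2:157560078-157562522, plus strand, GRCm38). Member sums held 10, 8, 18 and 11 UMIs of Nnat in the WT libraries and 49, 41, 38 and 33 UMIs in the Chd8het libraries. All 4 Chd8het libraries were above all 4 WT libraries. The level was 77.1 ± 22.2 CPM in WT and 278 ± 63.0 CPM in Chd8het (SD, n = 4 each). The fitted log2 change was 1.81 (SE 0.27, edgeR adjusted p = 0.0448; DESeq2 adjusted p = 0.00709). The call was near its threshold: with a library left out it was made in 2 of 8 fits, those without WT female 1 or without Chd8het female 2, with adjusted p from 0.0176 to 0.381 (0.381 without WT male 1) and log2 changes from 1.64 to 2.08. With Scrublet-marked nuclei removed the edgeR adjusted p was 0.0708, with a stricter nucleus filter 0.171 and with 3 marker UMIs 0.124. Nor was Nnat called by edgeR or DESeq2 with same-numbered libraries as blocks, although no label ties those numbers to litters.

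Most of the added Nnat RNA was in the Lama1 cluster. In cluster 1, 56 WT nuclei held 25 UMIs (215 CPM) and 69 Chd8het nuclei held 136 UMIs (888 CPM). The UMIs came from 12 WT and 27 Chd8het nuclei, with at most 5 and 19 UMIs in 1 nucleus. In clusters 2, 3 and 4 the pooled levels were 46.7, 35.4 and 58.5 CPM in WT and 55.7, 14.6 and 36.2 CPM in Chd8het. Cluster 5 held 4 UMIs in WT (54.1 CPM) and 13 in Chd8het (127 CPM). By library, cluster 1 held 66.6, 154, 338 and 264 CPM in the WT libraries and 1193, 951, 848 and 610 CPM in the Chd8het ones. These came from 2, 3, 11 and 9 UMIs in WT and 44, 33, 33 and 26 UMIs in Chd8het. A fit to the sums of that cluster alone was added after the data were seen. It called 1 of 473 genes (0.211%), again Nnat, with a log2 change of 2.10 (SE 0.41, edgeR adjusted p = 0.00672). That fit reuses the counts of the first call, and Nnat was not left out of the clustering, so it is no second call. In the sums of clusters 2, 3 and 4 Nnat was too low to be tested. The 6 astrocyte markers summed above moved in the same direction: 540 to 626 CPM in the WT and 598 to 843 CPM in the Chd8het members, which overlap, with 988 CPM in cluster 1 and 535 to 723 CPM in clusters 2, 3 and 4. Their part in the Nnat, Ptgds and Lama1 cluster values was not tested.

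Nnat UMIs were also counted in other classes of nuclei, and how many of them were background RNA was not estimated. In astrocytes it was 49.1 ± 13 CPM in WT and 57.0 ± 25.5 CPM in Chd8het (log2 change 0.17, SE 0.28, edgeR adjusted p = 1.00), and in all nuclei that were not members 45.8 ± 9.62 and 50.4 ± 13.2 CPM (log2 change 0.10, SE 0.19). In mural nuclei it was 27.7 ± 33.2 CPM in WT (0 to 66.4) and 74.7 ± 41.9 CPM in Chd8het (35.7 to 119), higher on average in Chd8het with overlap, and in endothelial nuclei 27.9 ± 19 CPM in WT and 26.3 ± 19.2 CPM in Chd8het. Nnat was too low for the gene test in both of these classes. Differences between classes were tested over the same libraries. The fit against astrocytes was added after the data were seen, and Nnat was picked from these same member counts, which favours a large difference. In it the genotype change in members exceeded that in astrocytes by 1.66 (log2, SE 0.34, unadjusted p = 1.78e-05, edgeR adjusted p = 0.0946 over 10623 genes), which did not pass. That fit called 0 genes (0.0%), with 445 at an unadjusted p under 0.05. The same comparison against endothelial nuclei gave 1.89 (SE 0.75, edgeR adjusted p = 1.00) and called 0 of 3793 genes (0.0%), with 130 at an unadjusted p under 0.05. Nnat lies within Blcap, a gene on the opposite strand (chr2:157556362-157571274), and whether reads were counted by strand is not given in the sources used here. Blcap had 31 UMIs in all members, at 23.6 ± 13.7 CPM in WT and 27.6 ± 11.1 CPM in Chd8het.

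**Figure D5:**
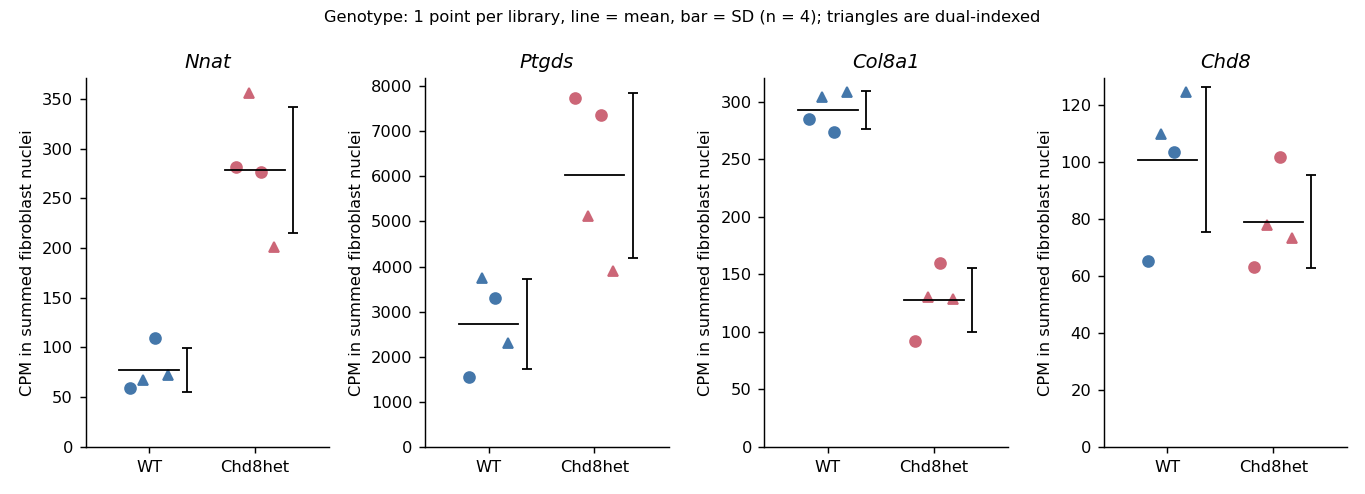
Levels of Nnat, Ptgds, Col8a1 and Chd8 in the summed fibroblast nuclei of each library, in CPM from 0; circles are single-indexed and triangles dual-indexed libraries, lines are means and bars SD (n = 4 per genotype). The genotypes do not overlap for the first 3 genes and overlap for Chd8; only Nnat was called (edgeR adjusted p = 0.0448).

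Ptgds was not called between genotypes, although its levels did not overlap. Its level was 1548, 3752, 3302 and 2304 CPM in the WT libraries and 7729, 5124, 7364 and 3897 CPM in the Chd8het libraries. The lowest Chd8het and highest WT values were close. The log2 change was 1.14 (SE 0.30, unadjusted p = 0.00226, edgeR adjusted p = 0.988). In the Lama1 cluster it was 8554 ± 3156 CPM in WT and 17057 ± 6411 CPM in Chd8het (log2 change 1.05, SE 0.33, edgeR adjusted p = 0.313 in that cluster's own fit), and in clusters 2, 3 and 4 together the log2 change was 0.33 (SE 0.40). Ptgds was called under 2 other settings, at 8 or more marker UMIs (log2 change 2.35, edgeR adjusted p = 0.00150) and with no filter on low counts (1.11, edgeR adjusted p = 9.2e-05). Ptgds averaged 49.4 ± 21.1 CPM in WT and 92.5 ± 37.8 CPM in Chd8het endothelial nuclei, and 86.7 ± 90.8 and 255 ± 212 CPM in mural nuclei. The genotype difference in members exceeded that in endothelial nuclei by 0.27 (log2, SE 0.66) and that in astrocytes by 0.91 (SE 0.35), neither of which passed (edgeR adjusted p = 1.00 for both). The share of the Lama1 cluster, where Ptgds is highest, also had a larger mean in the Chd8het libraries, but within them the order differed: Chd8het male 1 had the highest Ptgds and the lowest share (31.1%), and Chd8het female 2 the lowest Ptgds and the highest share (42.5%). The part of that share in the Ptgds value was not tested. In the Chd8het libraries 61 of 69 nuclei of cluster 1 held Ptgds, with 310 of 2591 UMIs in the nucleus with the most, and in cluster 5 a single nucleus held 293 of 326 UMIs.

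Col8a1, the leading gene of cluster 3, was lower in the Chd8het libraries. Levels were 285, 304, 274 and 309 CPM in WT and 91.7, 130, 160 and 128 CPM in Chd8het libraries, without overlap. The log2 change was -1.21 (SE 0.23, unadjusted p = 0.000104) and the edgeR adjusted p was 0.171, so it was not called; with no filter on low counts the adjusted p was 0.0384. The pooled level was lower in Chd8het in cluster 2 (233 to 55.7 CPM), in cluster 3 (608 to 452 CPM) and in cluster 1 (146 to 19.6 CPM, with 10 of the 17 WT UMIs there in 1 nucleus). In clusters 2, 3 and 4 together the log2 change was -0.83 (SE 0.26).

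Other genes with the smallest p-values did not pass either. Tmem64, a membrane protein, had 3, 2, 9 and 6 UMIs in the WT sums and 12, 9, 14 and 21 in the Chd8het sums (log2 change 1.53, SE 0.35), and 44 of its 56 Chd8het UMIs were in cluster 1. Lhfpl2, a tetraspan membrane protein, had a log2 change of -1.08 (SE 0.25), and both it and Tmem64 had an edgeR adjusted p of 0.662. Fbln1, the matrix glycoprotein fibulin-1, had a log2 change of 1.23 and Deptor, an inhibitor of the mTOR kinase, of 1.04. Erbb4, a neuregulin receptor of interneurons, had one of -1.38, but in clusters 2 and 5 of the WT libraries single nuclei held 57 of 116 and 58 of 100 UMIs; with no filter on low counts it was called (edgeR adjusted p = 0.00225). Gpm6a (0.81), a membrane glycoprotein highest here in astrocytes (1080 CPM), and Scn2a (0.88), a sodium channel of neurons, were also among the 8 smallest p-values on the higher side. In cluster 5, led by neuronal genes, Scn2a had 11 UMIs in WT (149 CPM) and 50 in Chd8het (489 CPM). In clusters 1, 2, 3 and 4 it was at 129, 77.8, 70.8 and 58.5 CPM in WT and 150, 132, 43.7 and 72.5 CPM in Chd8het.

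None of the pathway lists had a called member. Over 17 lists with 390 genes, 132 genes could be tested, 0 were called, and 5 were higher and 2 lower at an unadjusted p under 0.05 (5.30%, against 4.25% of all genes tested). The list medians lay between -0.26 and 0.26 on the log2 scale, and the median of all tested genes was 0.00. Among 16 tested transporters, Slc7a11 had an unadjusted p under 0.05 (log2 change 0.97, SE 0.34): 415, 304, 456 and 223 CPM in WT and 436, 1222, 784 and 409 CPM in Chd8het, which overlap. Among 19 mesenchymal transcription factors, Zic2 (log2 change 0.82) and Runx2 (0.74) did. Among 15 secreted signals, Ptgds and Rspo3, a Wnt-enhancing ligand (-0.61, SE 0.22), did in opposite directions, and Col8a1 and Fbln1 were the remaining list members with such a p-value. The 5 tested fibrillar collagens (median log2 change -0.10), 8 basement membrane genes (-0.17), 16 genes of TGF-beta and BMP signalling (0.05), 6 Wnt responders (-0.26) and 7 CHD remodellers (-0.07) had none. The rule set a minimum on the summed UMIs of its 5 genes, so their log2 changes, from -0.38 (Slc47a1) to 0.43 (Slc6a13), are a description only.

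Chd8 itself was counted at 11, 13, 17 and 19 UMIs in the WT member sums and at 11, 9, 14 and 12 UMIs in the Chd8het ones. The levels overlapped, at 101 ± 25.3 and 79.0 ± 16.4 CPM, with a log2 change of -0.35 (SE 0.29, edgeR adjusted p = 0.988). Over all nuclei that were not members it was 0.00 (SE 0.07). Since the allele is not described and the kit counts the 3' end, the level of Chd8 does not check the genotype labels.

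Sex and index type gave few called genes. At an unadjusted edgeR p under 0.05, however, 336 of 3293 genes differed between index types. Between sexes 126 did, and between genotypes 140. Xist, Tsix and Uty were the 3 genes called between sexes (0.0911% of those tested): Xist was at 0 UMIs in all 4 male sums and at 328, 217, 225 and 165 UMIs in the female ones, and Uty, on the Y chromosome, was found in male sums only, so these libraries match their labelled sex. Tsix overlaps Xist on the opposite strand. No gene passed the test of a genotype difference between the sexes in edgeR (0.0%), with 122 at an unadjusted p under 0.05. Between index types 2 genes were called (0.0607%): Atp6v0b, a proton pump subunit, fell by 1.48 on the log2 scale in dual-indexed libraries and AY036118 rose by 1.30 (SE 0.21 and 0.19, edgeR adjusted p = 0.0147 for both). Mbp, a myelin gene, had a log2 change of -1.73 and Meg3 of 1.00, neither called (edgeR adjusted p = 0.0644 and 0.0954). Nnat (-0.12), Ptgds (-0.24) and Col8a1 (0.09) had small index differences.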

How the data were processed

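Nuclei of 8 libraries (2 per genotype and sex) were analysed. The authors deposited raw UMI counts per gene and barcode for each library, with 32285 genes, and no normalization was found in those values. Per the submitters' processing notes, STAR 2.7.9a, STARsolo and Cell Ranger and the build mm10 were used; the annotation, the use of introns and strandedness are not given in the sources used here. No cell annotation was used. Members and gene lists were chosen with earlier results of these data known.

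Counts of members were summed per library and tested with edgeR 4.0.16 (TMM, filterByExpr with a minimum count of 10, quasi-likelihood test, sex and genotype as terms, Benjamini-Hochberg adjustment); DESeq2 1.42.0 was an alternative. CPM divides by the UMIs of the class sum. Comparison classes required 4 endothelial UMIs, 3 mural UMIs or 4 Slc1a3 UMIs and at most 1 fibroblast marker UMI. Clusters used scanpy 1.11.5 on 2000 variable genes centred within each library, 20 components and 15 neighbours. The bearing of that centring on the cluster shares was not tested. Named genes were the rule genes and Col1a1, the 20 with the largest class ratio, those called between genotypes and the 8 with the smallest p per direction, up to 4 of the highest and 3 of the smallest p per list, Chd8, those called between sexes, up to 5 per direction between index types and up to 6 leading each cluster; Blcap, Cldn11, Dpp4, Tjp1, Igf2, Aldh1a2, Pdgfra, Slc22a6 and Slc22a8 were named after their values were seen. Shares were compared over libraries by exact permutation tests. The fits were tested on simulated data, where 0, 5 and 14 unchanged genes were called at no, 2-fold and 4-fold changes. GENCODE M21 gave gene positions for 32158 gene IDs, and RefSeq gave promoter windows. Of the 7 astrocyte markers listed, 1 is not reported here, and their printed sum leaves it out.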

Additional observations from a re-analysis of the deposited data

Results flagged for a closer look

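Among 66 groups of 4 libraries examined for a single distant value, 1 passed the 95% limit of Dixon's test, where chance gives about 1 in 20. Lhfpl2 in the Chd8het member sums was lowest in Chd8het male 1, at 68.8 CPM against 78.0 to 79.9 CPM in the other 3 libraries, a gap of 0.832 of the group's range. The Chd8het sums held only 12, 9, 11 and 13 UMIs of Lhfpl2, so a gap of this size can be counting error. All 4 values lay below the WT libraries (118 to 190 CPM), but Lhfpl2 was named for its small genotype p.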

How the results depend on the processing

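Counts of genes called between genotypes (1 in the main analysis) were 0 with the stricter nucleus filter, 3 marker UMIs, Scrublet doublets removed, the replicate block, DESeq2 with the replicate block, or clusters 2, 3 and 4 alone, 2 with 8 marker UMIs, 11 with no low count filter, and 0 to 1 with a library left out. The numbers share no stated litter, and the deviations of same-numbered libraries correlated at 0.004 to 0.16 (over 0.1 in 3 of 4 pairs); under this block Nnat changed by 1.81 with an edgeR adjusted p of 0.0608, and DESeq2 with the block gave an adjusted p of 0.0928. Nnat was called in 10 of the 21 fits that tested it, with log2 changes from 1.43 to 2.10, and it was not tested with 8 marker UMIs. All 420 alternative values of 21 genes with a genotype value kept their direction. Apart from Chd8 these genes were named for a small genotype p in these same sums. The alternatives reuse most of the same nuclei, so a kept direction is little support. Between index types (2 called) the count was 9 with DESeq2, 4 with 8 marker UMIs, 56 with no low count filter, 8 with no sex term, 0 after thinning and 0 to 20 with a library left out (20 without Chd8het male 2). Between sexes (3 called) it was 9 with no low count filter. The share difference between genotypes kept its side of the threshold in 16 of 16 alternatives, at -5.96e-06 points after thinning. Between index types the share difference passed in 4 alternatives and did not pass in 3. Those 3 were -0.0788 points (p = 0.0857, exact permutation) with the stricter filter, -0.0579 (p = 0.257) with 8 marker UMIs and -0.0485 after thinning. The Lama1 cluster difference was 8.96 points with genotype-associated genes kept, also at resolution 0.3, 8.56 without doublets, 4.09 with 8 marker UMIs, 6.48 split by the rule genes and 6.63 to 10.4 with a library left out; under the replicate block the exact sign-flip p was 0.125, the smallest that 4 pairs allow. The genotype difference in median UMIs (131) was -40.3 without WT female 1 and -38.5 without Chd8het female 2, up to 328 without another library. Resolution 1.0 gave 8 clusters. The 36 to 64 members per library limit what can be seen: simulated 2-fold changes were mostly missed. Animals, not repeat preparations, are the replicates.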
